A study of Mus musculus with 15 samples.

Results

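The comparison set 3 mouse high-grade glioma (HGG) tumours labelled Sox9-GOF, for gain of function of Sox9, against 3 control tumours of the same model. It used every gene of 1 deposited table and 6 of the 15 libraries of the series. The others were 3 HGG libraries labelled Sox9-LOF (loss of function), 3 ependymoma (EPN) controls and 3 EPN libraries labelled Sox9-GOF. Each library was made from poly(A) RNA of frozen brain tumour tissue, so the tumour cells were read together with the vessels, immune cells and brain around them. In such bulk tissue, fewer cells of a type and less RNA per cell cannot be told apart. The labels name the groups only as HGG control and HGG Sox9-GOF. The tumour-inducing alleles that both groups share, the strain and age of the mice, and the means by which Sox9 was raised are absent from the labels used here. Nothing in the labels ties replicates to different mice, and a p-value below therefore covers the variation among libraries only, part of which may be technical. Values are given for Olig2 and Pdgfra, genes of the oligodendrocyte lineage that gliomas commonly express. Oligodendrocyte precursors of the brain around a tumour express them too, so their presence cannot check the glial tumour label. Both were present in all 6 libraries, with Olig2 at normalized counts of 4312, 4996 and 1663 in the controls and 1798, 2796 and 1005 with Sox9-GOF, and Pdgfra at 2908, 7876 and 1263 in the controls and 3881, 10408 and 3227 with Sox9-GOF.

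SOX9 is a transcription factor that binds DNA through a high-mobility-group domain. In the embryo it drives the formation of cartilage by switching on collagens and aggrecan together with its partners SOX5 and SOX6. In the central nervous system it marks neural stem cells, is needed for the switch from making neurons to making glia, acts with the nuclear factor NFIA, and stays on in mature astrocytes. The title of the series concerns how Sox9 acts on chromatin in brain tumours of different kinds, and the present comparison asks which transcripts differed in HGG with Sox9 gain of function.

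No single gene passed the main test. Of 15092 genes with a mean normalized count of at least 10, limma called 0 (0%) at an adjusted p of 0.05, edgeR called 0 on the recovered reads, and 3420 (22.7%) had an unadjusted limma p under 0.05, 1764 (11.7%) higher with Sox9-GOF and 1656 (11%) lower. The smallest limma adjusted p was 0.0590, shared by 46 genes. At an adjusted p under 0.10 limma listed 1226 genes (8.12%), 680 higher (4.51%) and 546 lower (3.62%). DESeq2 on the recovered reads called 2260 of 15024 genes (15%), 1095 higher (7.29%) and 1165 lower (7.75%). All 3 libraries of one group lay above all 3 of the other for 4600 genes (30.5%), 2311 of them higher with Sox9-GOF (15.3%) and 2289 lower (15.2%). Of all genes tested, 51.9% had a positive fold change, and the median log2 fold change was 0.03. Genes below are therefore described by their values, with log2 fold changes and standard errors (SE) from limma on the log2(value + 1) scale, and counts in a gene list stand beside these percentages. Members named from a list were mostly those with its smallest limma p-values. Separation of the groups in such members follows in part from that choice and is no separate result.

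The libraries held 4665428 to 13830743 reads assigned to genes, with control 2 the shallowest. The controls were less alike (correlations of 0.802 to 0.847 across genes) than the Sox9-GOF libraries (0.932 to 0.946), and the median SD of a gene on the log2 scale was 0.458 against 0.300. Control 1 held choroid plexus transcripts, with a summed normalized count of 148190 for the list against 2738 to 19297 in the other 5 libraries. Control 2 was the highest library for 14 of 15 genes in a list for Schwann cells, the glia of peripheral nerve. That list was chosen after the data were seen. Sox9-GOF 2 was the only library with transcripts of the Y chromosome (Ddx3y at 583 normalized counts, against 0 to 0.795 in the other 5) and the only one nearly without Xist (10.6 against 3021 to 9779), and sex entered no test. Each list below has a second median, written as corrected, taken after the 6 libraries were corrected for the GC content and length of the transcripts.

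Across 14980 genes, which are not independent replicates, the fold change fell with the GC content of the transcript (Spearman rho -0.603, Pearson r -0.557). The fifth of genes with the lowest GC content had a median log2 fold change of 0.64, with 89.0% of genes higher, and the fifth with the highest had -0.60, with 16.8% higher. The 3 groups between them had medians of 0.28, 0.00 and -0.27. All 3 controls deviated towards GC-rich genes (rho 0.205, 0.448 and 0.382) and all 3 Sox9-GOF libraries away from them (-0.446, -0.476 and -0.391). In the EPN tumours the fold change of Sox9-GOF had a rho of 0.00337 with GC content. After the correction no gene had a limma adjusted p under 0.10, the smallest being 0.149, and 1380 had an unadjusted p under 0.05. Of the 1213 genes listed at 0.10 that have a GC content, 1137 kept their direction, and 488 kept both the direction and an unadjusted p under 0.05. The labels name no library preparation batch, and a difference in base composition between library preparations and the Sox9 group cannot be told apart.

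**Figure D1:**
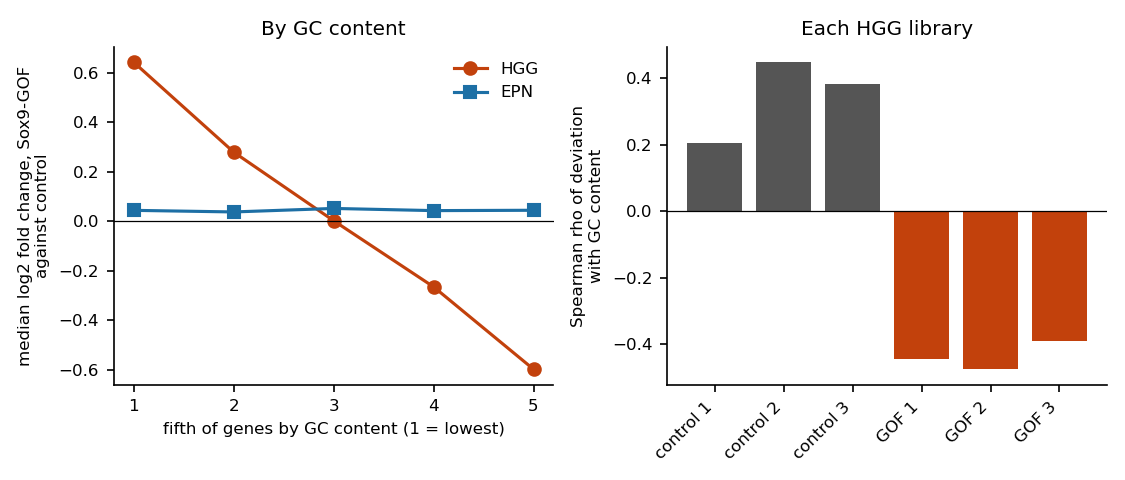
Left, median log2 fold change (vertical axis) of genes in 5 equal groups by GC content (horizontal axis), for Sox9-GOF against control in HGG (circles) and EPN (squares); right, the Spearman rho across genes between each HGG library's deviation from the gene means and GC content. The HGG medians run from 0.64 to -0.60 while those of EPN lie near 0.04 in all 5 groups, and the 3 controls and the 3 Sox9-GOF libraries have opposite signs.

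Sox9 itself was read first, since it checks the labels. The gene lies on the plus strand of chromosome 11, positions 112782224 to 112787760 in GRCm38, the build also known as mm10. Its normalized count was 236, 312 and 335 in controls 1, 2 and 3 and 1412, 1702 and 1520 in Sox9-GOF 1, 2 and 3. Every Sox9-GOF library lay above every control. The mean was 294 ± 52.3 (SD, n = 3) in the controls and 1545 ± 146 with Sox9-GOF, a log2 fold change of 2.40 (SE 0.20) or 5.28-fold. The limma adjusted p was 0.0590, which missed the threshold, and DESeq2 gave 1.05e-19. An exact two-sided permutation test of 3 against 3 libraries gave p = 0.1, the smallest this design allows. The correction for GC content left the log2 fold change at 2.29, with a limma adjusted p of 0.149.

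Genes that SOX9 switches on in cartilage were mostly higher. Of 17 measured members, 12 had a positive fold change, with a list median of 0.98 as measured and 0.85 corrected. In 4 of the 17 (23.5%, against 15.3% of all genes) all Sox9-GOF libraries lay above all controls, and in 1 (5.88%, against 15.2%) below them. Lect1, which encodes the cartilage matrix protein chondromodulin, had normalized counts of 12, 65.2 and 37.6 in the controls and 238, 141 and 198 with Sox9-GOF. Hapln1, the link protein that ties aggrecan to hyaluronan, had 5.99, 92.2 and 99.0 in the controls and 258, 493 and 248 with Sox9-GOF. Ucma, a secreted protein of cartilage, was low throughout, with 0.856, 2.25 and 6.14 in the controls and 25.4, 15.4 and 38.3 with Sox9-GOF. In these 3 genes, named for small limma p-values in the list, every Sox9-GOF library exceeded every control. The log2 fold changes were 2.56 (SE 0.62), 2.98 (SE 1.05) and 2.88 (SE 0.74) in that order. Hapln1 rested in part on control 1 and had a log2 fold change of 1.72 without it. For Ucma, whose counts are low, a pseudocount of 8 gave 1.61. Acan, aggrecan itself, had 42.0, 101 and 21.5 in the controls and 97.0, 126 and 193 with Sox9-GOF, so the lowest Sox9-GOF library lay just under the highest control, and the log2 fold change was 1.54 (SE 0.60), or 1.02 without control 3. Col2a1, the main collagen of cartilage, had 369.9, 207 and 98.2 in the controls and 97.8, 1112 and 354 with Sox9-GOF, overlapping groups with a log2 fold change of 0.78 (SE 0.92) that was -0.074 without Sox9-GOF 2. Col11a2, a further cartilage collagen, went the other way, with 914, 2675 and 1443 in the controls and 175, 465 and 483 with Sox9-GOF and a log2 fold change of -2.16 (SE 0.54). The list median was 0.45 without control 3 and 0.58 without Sox9-GOF 2, the libraries with the lowest and the highest mean of these genes.

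Partners and relatives of SOX9 lay on both sides. Sox5, the partner in cartilage, had normalized counts of 82.2, 366 and 175 in the controls and 455, 626 and 383 with Sox9-GOF, and Sox6 had 1568, 991 and 384 in the controls and 1615, 3006 and 977 with Sox9-GOF. Sox5 was above the controls in every Sox9-GOF library (log2 fold change 1.45 (SE 0.54), 0.85 after the GC correction and 0.91 without control 1), and Sox6 overlapped (1.00 (SE 0.61), 0.41 corrected, 0.43 without control 3 and 0.58 without Sox9-GOF 2). Sox13, the remaining member of the same subgroup, lay below the controls in every Sox9-GOF library, with 224, 369 and 122 in the controls and 54.0, 91.0 and 93.9 with Sox9-GOF (log2 fold change -1.47 (SE 0.47), -0.77 after the correction). Of the 15 Sox genes measured 4 were positive and 11 negative, with a median of -0.51 (-0.29 corrected, -0.92 without control 3 and -1.05 without Sox9-GOF 2). Sox10, a factor of oligodendrocytes and Schwann cells, was highest in controls 1 and 2, with 7290, 9233 and 1172 in the controls and 2414, 2224 and 1178 with Sox9-GOF. Sox2, a neural stem cell factor, had 2704, 1542 and 694 in the controls and 999, 1404 and 843 with Sox9-GOF, and its groups overlapped. Among the 4 nuclear factor I genes, Nfib had 691, 865 and 629 in the controls and 1279, 1856 and 1060 with Sox9-GOF, above all controls, with a log2 fold change of 0.91 (SE 0.26) that was 0.12 after the correction. Nfia, the partner of SOX9 in glial development, had a log2 fold change of 0.09 (SE 0.23), which turned to -0.77 after the correction and also turned sign without control 3 and without Sox9-GOF 2.

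**Figure D2:**
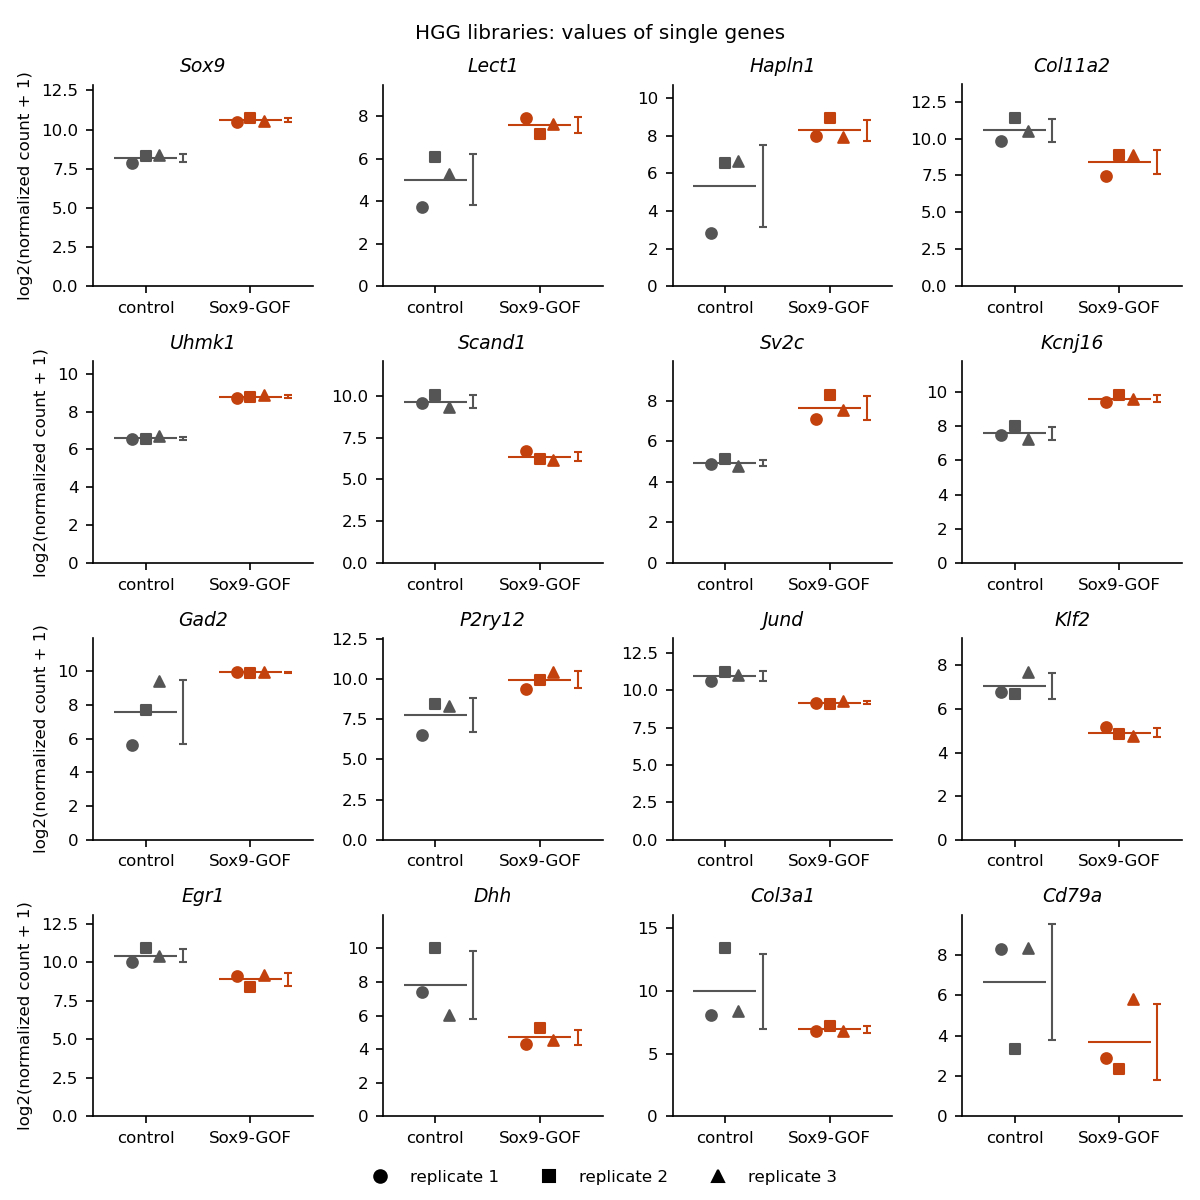
Normalized counts on a log2(value + 1) scale (vertical axis) of 16 genes in the 3 HGG controls (grey) and the 3 HGG Sox9-GOF libraries (orange), 1 point per library with the symbol giving its replicate number, a line at the group mean and bars of 1 SD. Sox9 and Uhmk1 are tight and apart between the groups, Gad2 is spread among controls only, and Dhh and Col3a1 stand out in control 2.

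The smallest limma p-values belonged to genes of several kinds, enzymes and an adhesion molecule among them. Uhmk1, a serine-threonine kinase, was close within each group, with normalized counts of 91.6, 94.4 and 102 in the controls and 428, 435 and 472 with Sox9-GOF and a log2 fold change of 2.20 (SE 0.20), 1.53 corrected. Scand1, which encodes a small protein with a SCAN domain, had 778, 1070 and 638 in the controls and 102, 73.9 and 71.9 with Sox9-GOF. This is a log2 fold change of -3.30 (SE 0.28), and -2.10 after the correction. Of its transcript 68.4% is G or C. Pcdh7, a protocadherin, had 299.7, 272 and 325 in the controls and 889, 992 and 986 with Sox9-GOF, with 1.68 (SE 0.17) and 1.07 corrected. Sod3, the extracellular superoxide dismutase, had 549.8, 832 and 474 in the controls and 104, 87.7 and 83.4 with Sox9-GOF, and its fold change of -2.70 (SE 0.27) was -2.55 after the correction. Arhgef1, an activator of RhoA, had 1522, 1508 and 1318 in the controls and 378, 495 and 407 with Sox9-GOF (-1.77, and -1.03 corrected). Mib1, a ubiquitin ligase that makes NOTCH ligands competent to signal, had 169.6, 133 and 143 in the controls and 509, 589 and 649 with Sox9-GOF (1.97, and 1.14 corrected). In all 6 genes the groups did not overlap, which follows from choosing them by p-value and is no separate result. All 6 shared the limma adjusted p of 0.0590.

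Genes were next ranked by size of change among those with a mean of at least 100 and groups that did not overlap. They also needed an unadjusted limma p and a DESeq2 adjusted p under 0.05. Separation of the groups was thus a condition for the genes of this paragraph and is no result. The largest differences included secreted proteins. Penk, the precursor of the enkephalin peptides, had normalized counts of 104, 40.5 and 347 in the controls and 859.9, 1701 and 1315 with Sox9-GOF, a log2 fold change of 3.44 (SE 0.75). Chil3, a chitinase-like protein of macrophages whose reads may be shared with near-identical family members, had 13.7, 0 and 11.5 in the controls and 200.3, 428 and 102 with Sox9-GOF (5.19, SE 1.14). Nxf3, an RNA export factor, had 65.9, 87.7 and 3.07 in the controls and 655, 722 and 257 with Sox9-GOF, and its fold change of 4.10 was 2.69 without control 3. On the lower side, Sostdc1, a secreted antagonist of BMP and WNT ligands, had the largest difference, with 376, 989 and 144 in the controls and 22.3, 8.12 and 18.2 with Sox9-GOF. Its log2 fold change was -4.57 (SE 0.75). It is also a choroid plexus gene, whose list was high in control 1, but here control 2 was the highest. Srpk3, a splicing-factor kinase, had 558, 571 and 91.3 in the controls and 23.8, 47.1 and 33.5 with Sox9-GOF (-3.16 (SE 0.76)). Foxd3, Dhh, Egfl8 and Sema3b at this end were also highest in control 2 and are taken up with the matrix genes. Arhgef16, Sytl3, Tmprss5, Tbx2 and Scand1 at this end were highest in control 2 as well, and Srpk3 narrowly so. Erdr1, in contrast, was highest in control 1.

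Lists of neuronal and synaptic genes had positive medians, but the share of neuron markers above the controls without overlap was under that of all genes. Neurons signal through vesicle release, through glutamate and GABA receptors and through voltage-gated channels, and glioma cells can express part of this machinery. Glutamate and GABA receptor genes had a median log2 fold change of 1.61 (1.16 corrected), with 22 of 24 positive and 10 above the controls without overlap, 41.7% against 15.3% of all genes. Their median GC content was 44.2%, within the fifth of genes lowest in GC, of which 89.0% were higher. Zinc finger genes named Zfp and a number, at a median GC content of 45.6%, had 39.9% above the controls without overlap. The part of GC content in the receptor share was not tested. Neuron markers had 0.77 (0.96 corrected; 21 of 23 positive, 3 without overlap or 13%), synaptic vesicle and scaffold genes 0.71 (0.54; 25 of 30, 6 or 20.0%) and channel genes 0.83 (0.66; 21 of 24, 7 or 29.2%), against the same 15.3%. Much of this rested on control 1, where these lists were lowest. Without it the medians were 0.89 for the receptors, -0.26 for neuron markers, 0.24 for synaptic genes and 0.18 for channels. Without control 3, where neuron markers were highest, the last 3 were 1.55, 1.3 and 1.51. The summed normalized count of the neuron markers was 13081, 34128 and 95954 in the controls and 67020, 44484 and 66036 with Sox9-GOF. Control 3 held the highest sum, so the groups overlapped, and the part of admixed brain neurons in these values was not tested.

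Single members differed in how far they depended on control 1. Sv2c, a synaptic vesicle glycoprotein, had normalized counts of 28.3, 33.7 and 26.9 in the controls and 134, 311 and 185 with Sox9-GOF, with tight controls and a log2 fold change of 2.71 (SE 0.38). Kcnj16, an inward rectifier potassium channel that glia also use, had 176, 258 and 153 in the controls and 679, 907 and 767 with Sox9-GOF (2.02 (SE 0.26)). Scn3a, a sodium channel alpha subunit of the developing brain, had 80.5, 157 and 170.3 in the controls and 343, 596 and 399.7 with Sox9-GOF, and its fold change of 1.74 was 0.84 after the correction. These 3, named for small limma p-values in their lists, were higher in every Sox9-GOF library than in any control. Grin2b, an NMDA receptor subunit, had 1.71, 22.5 and 48.3 in the controls and 157, 129 and 239 with Sox9-GOF, and its log2 fold change of 3.54 (SE 1.05) was 2.32 without control 1. Gad2, an enzyme of GABA synthesis, had 48.8, 207 and 691 in the controls and 998, 970.0 and 1010 with Sox9-GOF (2.37, and 1.39 without control 1). Gria4, an AMPA receptor subunit, had 502, 459 and 549 in the controls and 2267, 1459 and 803 with Sox9-GOF (1.46, and 0.94 corrected). Again no groups overlapped, with controls far apart for Grin2b and Gad2 and close together for Gria4. Nlgn1 and Homer1, postsynaptic adhesion and scaffold genes, had fold changes of 1.37 and 1.3 as measured and 0.11 and 0.10 after the correction.

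Adhesion genes showed the same direction. Cadherins and protocadherins, which join like cells, had a median of 0.71 (0.38 corrected), with 25 of 30 positive, and the clustered protocadherins, which give neurons their surface identity, had 0.65 (0.40; 43 of 51) and 0.36 without control 1. Neighbouring clustered genes share sequence, so their reads are uncertain. Axon guidance genes had 0.53 (0.22 corrected; 24 of 30), with the netrin receptor Unc5c at 462, 373 and 173 in the controls and 800.3, 1367 and 758 with Sox9-GOF (1.6, and 0.86 corrected) and the semaphorin receptor Plxnd1 lower, at 1036, 2081 and 1402 in the controls and 686, 566 and 708 with Sox9-GOF (-1.15, and -0.71 corrected).

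Glial lineage lists differed in direction, and few of their members separated the groups. Astrocyte markers had a median of 0.66 (0.85 corrected; 18 of 23 positive), which turned to -0.17 without control 1 and was 1.07 without control 2 and 0.31 without Sox9-GOF 3. Aqp4, the water channel of astrocyte endfeet, had normalized counts of 138, 1645 and 2408 in the controls and 2604, 5792 and 8496 with Sox9-GOF, a log2 fold change of 2.62 (SE 1.10) that was 1.34 without control 1. Gfap, the intermediate filament of reactive astrocytes, had 5533, 14989 and 22368 in the controls and 14219, 22820 and 56520 with Sox9-GOF, and the groups overlapped. Oligodendrocyte precursor markers had a median of -0.20 (0.19 corrected), which turned to 0.26 without control 2 and 0.17 without Sox9-GOF 3, and was -0.37, -0.63 and -0.44 without control 1, control 3 and Sox9-GOF 2. Within that list Tnr, the matrix protein tenascin-R, had 820.4, 1050 and 223 in the controls and 2211, 3407 and 1954 with Sox9-GOF (2.08 (SE 0.60)), and Ptprz1, a receptor phosphatase of glial precursors, had 6179, 7084 and 3779 in the controls and 16371, 12901 and 7547 with Sox9-GOF (1.09, and 0.43 corrected). Both were above every control. Mature oligodendrocyte genes had a median of -0.64 (-0.50 corrected; 11 of 16 negative), -0.19 without control 2, -0.19 without Sox9-GOF 1, -1.08 without control 3 and -1.01 without Sox9-GOF 3. Radial glia and neural stem genes had -0.40 (-0.11 corrected, and -0.12 without Sox9-GOF 1; 14 of 19 negative), among them Vim, an intermediate filament, at 17860, 15533 and 9183 in the controls and 7137, 8126 and 8724 with Sox9-GOF (-0.78, and -0.40 corrected).

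Genes of resting microglia, the resident immune cells of brain, were higher in all 20 measured members. Their median log2 fold change was 0.87, and 1.15 after the correction, with 5 members above the controls without overlap (25.0% against 15.3% of all genes). The purinergic receptor P2ry12 had normalized counts of 91.6, 355 and 313 in the controls and 676, 1003 and 1414 with Sox9-GOF (2.18 (SE 0.57), 1.44 corrected). The related P2ry13 had 192, 196 and 555 in the controls and 955, 687 and 1191 with Sox9-GOF (1.74 (SE 0.46)), and the lysophospholipid receptor Gpr34 had 12, 71.9 and 16.1 in the controls and 116, 515 and 609 with Sox9-GOF (3.72 (SE 0.88)). In these 3 genes, again named for small limma p-values in the list, every Sox9-GOF library exceeded every control. Sall1, a transcription factor of microglial identity, also did, at 326, 432 and 595 in the controls and 668, 998 and 719.8 with Sox9-GOF (0.84 (SE 0.29)). By contrast Tmem119 and Aif1, also members of this list, overlapped between the groups, with log2 fold changes of 0.21 (SE 0.33) and 0.26 (SE 0.65). Both turned sign, Tmem119 without control 1 and Aif1 without control 2 or Sox9-GOF 1. The summed count of the list was 26597, 20163 and 59182 in the controls and 51769, 40353 and 61485 with Sox9-GOF, and control 3 lay above 2 of the 3 Sox9-GOF libraries. Genes of disease-associated microglia and lipid handling had a median of 0.03, which was 0.60, -0.15 and 0.39 without controls 1, 2 and 3, and 0.13, 0.41 and 0.11 without Sox9-GOF 1, 2 and 3. In it stood Gpnmb, a glycoprotein of lipid-laden macrophages, at 778, 2313 and 341 in the controls and 9974, 4481 and 3301 with Sox9-GOF (2.63 (SE 0.75)).

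**Figure D3:**
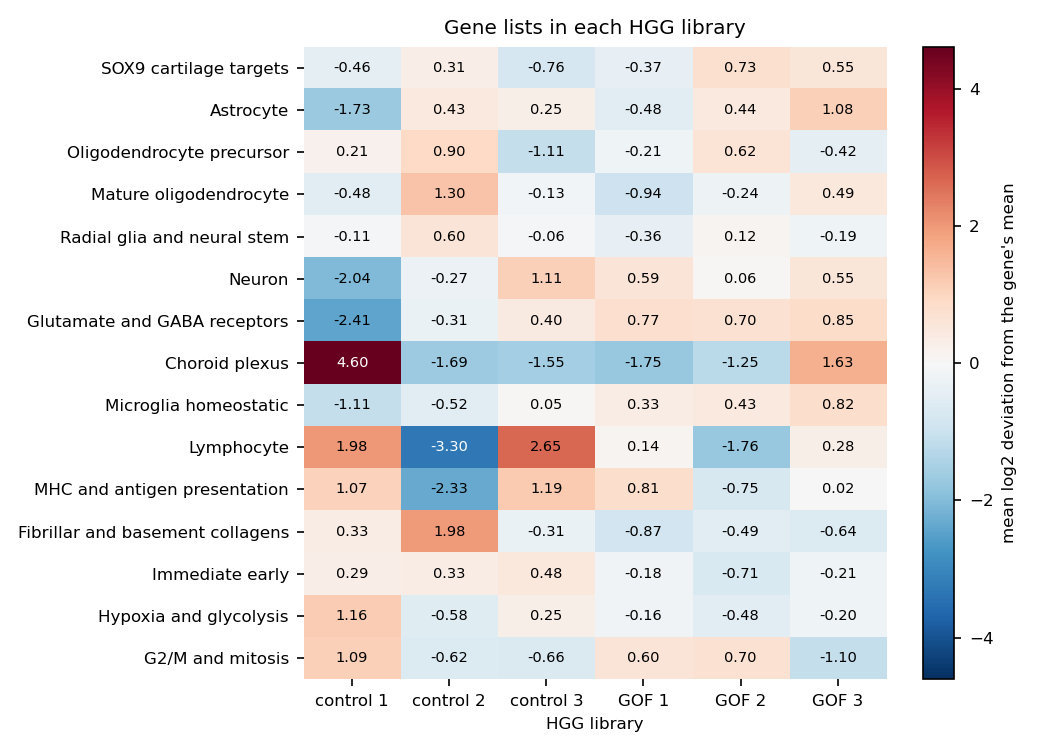
Mean deviation of 15 gene lists (rows) in each of the 6 HGG libraries (columns), in log2 units from each gene's mean over the 6 libraries, with the value printed in each cell. Immediate early genes are positive in the 3 controls and negative in the 3 Sox9-GOF libraries, whereas choroid plexus genes stand out in control 1 and collagens in control 2.

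Immediate early genes, which cells transcribe within minutes of a stimulus, were lower in 21 of 27 measured members. Their median log2 fold change was -0.96, and -0.47 after the correction for GC content. In 11 members (40.7%, against 15.2% of all genes) every Sox9-GOF library lay below every control. The libraries' handling times are not in the labels. For 22 of the 27 genes RefSeq holds the bases before the transcription start in GRCm38.p6. These 250 bases were searched on both strands for the cyclic AMP response element TGACGTCA, the AP-1 site TGANTCA, the EGR site GCGGGGGCG, the SOX site CATTGT, the CArG box and the MEF2 element, the last added after the sequences were seen. Windows are printed, with matches in capitals, for Jund and Klf2, the members with the smallest limma p-values that have an entry. Those of Klf4 and Dusp1, which were also lower without overlap, were added after the matches were seen, so they illustrate the elements and are no sample of the list. The windows lie at chr8:70697489-70697738 (plus strand), chr8:72318812-72319061 (plus strand), chr4:55532476-55532725 (minus strand) and chr17:26508473-26508722 (minus strand). For Jund the RefSeq start lies upstream of the GENCODE gene, which runs from 70698949 to 70700616 in the same build.
Jund: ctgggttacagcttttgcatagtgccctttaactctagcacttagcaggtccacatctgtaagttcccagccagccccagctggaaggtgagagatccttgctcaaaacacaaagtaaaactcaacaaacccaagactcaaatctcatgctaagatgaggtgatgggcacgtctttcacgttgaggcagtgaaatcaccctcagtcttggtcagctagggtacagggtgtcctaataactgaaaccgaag
Klf2: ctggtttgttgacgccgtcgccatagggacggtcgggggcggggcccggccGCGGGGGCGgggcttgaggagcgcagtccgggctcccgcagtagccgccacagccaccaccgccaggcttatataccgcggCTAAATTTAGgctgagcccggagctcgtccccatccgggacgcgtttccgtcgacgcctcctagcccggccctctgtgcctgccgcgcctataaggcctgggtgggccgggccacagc
Klf4: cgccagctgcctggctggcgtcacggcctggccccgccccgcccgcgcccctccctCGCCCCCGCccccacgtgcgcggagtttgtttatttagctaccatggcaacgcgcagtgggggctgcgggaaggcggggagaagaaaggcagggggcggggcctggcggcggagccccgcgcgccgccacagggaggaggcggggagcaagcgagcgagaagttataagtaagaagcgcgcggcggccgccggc
Dusp1: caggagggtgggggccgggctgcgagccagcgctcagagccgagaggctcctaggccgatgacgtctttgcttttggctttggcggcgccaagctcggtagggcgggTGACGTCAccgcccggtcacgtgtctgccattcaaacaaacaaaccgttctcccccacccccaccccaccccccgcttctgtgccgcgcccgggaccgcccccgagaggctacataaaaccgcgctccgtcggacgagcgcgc
The Jund window held none of the 6 elements, and the capitals mark an EGR site and a MEF2 element in Klf2, an EGR site in Klf4 and a cyclic AMP response element in Dusp1. The EGR site was found in 7 of the 22 windows and in 2.56% of the 27025 RefSeq windows of this length. The cyclic AMP response element was in 2 of 22 and 1.62%, the CArG box in 2 and 1.40%, the MEF2 element in 4 and 3.01%, the SOX site in 2 and 11%, and the AP-1 site in 0 and 6.87%. The printed windows held 47.6%, 71.2%, 74.0% and 68.4% GC in that order, more than 33.2%, 92.6%, 95.4% and 88.8% of all windows. Such matches describe the letters of these windows and are not binding sites.

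The transcripts beside these windows had the following values. Klf2, a zinc finger factor of vessels and lymphocytes, had normalized counts of 109, 101 and 209 in the controls and 35.0, 27.6 and 25.9 with Sox9-GOF, a log2 fold change of -2.14 (SE 0.39) and -1.27 corrected. Klf4, a related factor of stem cells and epithelia, had 74.5, 205 and 79.8 in the controls and 35.0, 37.4 and 44.1 with Sox9-GOF (-1.44 (SE 0.46)), and Dusp1, a phosphatase that switches off MAP kinases, had 287, 294 and 203 in the controls and 141, 148 and 124 with Sox9-GOF (-0.90 (SE 0.25), -0.45 corrected). Of the AP-1 subunits, Jund had 1569, 2427 and 2103 in the controls and 572, 534 and 611 with Sox9-GOF (-1.81 (SE 0.21), -0.69 corrected). Jun had 3618, 2230 and 1778 in the controls and 1275, 900.2 and 1348 with Sox9-GOF (-1.07 (SE 0.32), -0.65 corrected). Junb, in contrast, overlapped between the groups (-1.12 (SE 0.51), -0.20 corrected and -0.69 without Sox9-GOF 2), as did Fos, with 1067, 378 and 271 in the controls and 163, 240.5 and 379.5 with Sox9-GOF. Egr1, a zinc finger factor of growth factor and synaptic signalling, had 1040, 1919 and 1349 in the controls and 547, 343 and 587 with Sox9-GOF (-1.54 (SE 0.31)), and Ier2 had 468, 391 and 251 in the controls and 114, 134 and 109 with Sox9-GOF (-1.59 (SE 0.29), -0.74 corrected). In Klf2, Klf4, Dusp1, Jund, Jun, Egr1 and Ier2 the groups did not overlap. Egr3, a relative of Egr1, had 65.9, 294 and 348 in the controls and 908, 169.8 and 405 with Sox9-GOF, with overlapping groups. In EPN the list median was 0.20, and 4 of 26 members passed the test of the difference between the models, all with the EPN effect above, against 3.21% of all genes.

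Signalling pathway lists gave smaller medians. Feedback genes of ERK signalling had a median of -0.40 (13 of 17 negative), which was -0.05 after the correction, -0.15 without control 1 and -0.12 without control 2. Phlda1 was lower at 1557, 854 and 445 in the controls and 229.7, 272 and 235 with Sox9-GOF (-1.77, and -1.05 corrected), and Spred1, an inhibitor of RAS and RAF, was higher at 1070, 1394 and 1140 in the controls and 1841, 2406 and 2435 with Sox9-GOF (0.89, but 0.08 corrected). Of the growth factor receptors, Erbb4 had 16.3, 40.5 and 36.1 in the controls and 134, 249 and 145 with Sox9-GOF (2.51 (SE 0.46), 1.40 corrected), and Erbb2, its partner, had 122, 512 and 85.2 in the controls and 27.8, 40.6 and 48.9 with Sox9-GOF (-2.17 (SE 0.69), -1.39 without control 2). NOTCH pathway genes had a median of -0.45 (-0.18 corrected, -0.06 without control 2 and -0.14 without Sox9-GOF 1; 16 of 23 negative, 6 of the 23 without overlap or 26.1%, against 15.2% of all genes). Hes1, the NOTCH target that keeps progenitors undifferentiated, had 201, 407 and 139 in the controls and 97.0, 89.4 and 95.8 with Sox9-GOF (-1.25, and -0.82 without control 2). Rfng, a glycosyltransferase that modifies NOTCH receptors, had 816, 1358 and 975 in the controls and 374, 348 and 362 with Sox9-GOF (-1.5, and -0.73 corrected), while the coactivator Maml2 had 221, 252 and 222 in the controls and 618, 622 and 449 with Sox9-GOF (1.26, and 0.84 corrected).

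The lists of BMP and Id genes and of TGF-beta genes had medians near 0 (0.02 and -0.03), and the receptors that follow are single members of them. The BMP receptor Bmpr2 had normalized counts of 408, 555 and 567 in the controls and 1345, 1536 and 2071 with Sox9-GOF, a log2 fold change of 1.68 (SE 0.24) that was 0.59 corrected. Bmpr1a had 711, 746 and 642 in the controls and 1759, 1546 and 1539 with Sox9-GOF (1.21, and 0.41 corrected), and Tgfbr1, the type I TGF-beta receptor, had 526, 445 and 629.9 in the controls and 1290, 1406 and 1897 with Sox9-GOF (1.51, and 0.70 corrected). In these 3 receptors every Sox9-GOF library lay above every control. They were named for small limma p-values in their lists, so this separation is no separate result. The sign held after the correction. Id1, a target of BMP signalling, was lower, at 623, 405 and 282 in the controls and 179, 247 and 209 with Sox9-GOF (-0.98, and -0.51 corrected). WNT pathway genes had a median of -0.48 (-0.26 corrected, -0.25 without control 2 and -0.21 without Sox9-GOF 1), including the nuclear effector Tcf7 at 247, 184 and 128 in the controls and 47.7, 45.5 and 60.4 with Sox9-GOF (-1.80 (SE 0.33)). Sp5, a direct target of WNT signalling, had 24.8, 85.4 and 42.2 in the controls and 8.74, 2.44 and 3.83 with Sox9-GOF (-3.07 (SE 0.68)). The receptor Fzd3 had 406, 598 and 575 in the controls and 923, 1245 and 1390 with Sox9-GOF, 1.17 as measured and 0.01 corrected. NF-kB subunits and targets had a median of -0.55 (-0.20 corrected), with -0.20 without control 1, -0.86 without control 2, -0.34 without control 3 and -0.17 without Sox9-GOF 2. Rela, the main activating subunit, had 806, 1007 and 669 in the controls and 346, 381 and 335 with Sox9-GOF (-1.20, and -0.49 corrected). Of the p53 targets Eda2r, of the tumour necrosis factor receptor family, had 8.56, 2.25 and 14.6 in the controls and 79.5, 66.6 and 53.7 with Sox9-GOF (3.09 (SE 0.66)). Its value in control 2 was that of 1 read. Phlda3, an inhibitor of AKT, had 560.1, 787 and 333 in the controls and 224, 180.4 and 267 with Sox9-GOF (-1.25, and -0.31 corrected).

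Collagens outside cartilage were lower, and control 2 decided much of the size. Fibrillar and basement membrane collagens had a median of -1.82 (-1.57 corrected), with 19 of 23 negative and 11 without overlap (47.8% against 15.2% of all genes). Without control 2 the median was -1.10. The summed normalized count was 22614, 68157 and 8947 in the controls and 6548, 7220 and 6029 with Sox9-GOF, so all 3 Sox9-GOF libraries lay below all controls. Col3a1, a fibrillar collagen of connective tissue, had 272, 10827 and 335 in the controls and 109.7, 149 and 108 with Sox9-GOF, with a log2 fold change of -3.03 (SE 1.37), or -1.31 without control 2. Col4a1 of basement membranes had 2021, 8736 and 977 in the controls and 569.8, 907 and 539 with Sox9-GOF (-1.98 (SE 0.77), -1.10 without control 2). Col1a1, the main chain of type I collagen, had 414, 1367 and 285 in the controls and 116, 117 and 138 with Sox9-GOF (-2.13 (SE 0.57)). Control 2 was the highest library in these 3 chains, and every Sox9-GOF library lay below every control. Col12a1, which coats collagen fibrils, ran the other way, at 197, 196 and 62.9 in the controls and 1024, 501 and 467 with Sox9-GOF (2.20 (SE 0.54)).

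The same library carried genes of peripheral glia. A list of 15 Schwann cell genes, chosen after the data were seen, had its highest value in control 2 in 14 members, and its summed normalized count was 9667, 27900 and 2699 in the controls and 3973, 4296 and 2562 with Sox9-GOF. The list median was -1.62 with 13 of 13 measured members negative, and -0.67 without control 2 with 9 of 13 negative. The list holds Foxd3, Dhh and Egfl8, already named among the most negative genes, so these counts follow in part from the choice. Dhh, a hedgehog ligand of Schwann cells, had 165, 1020 and 65.2 in the controls and 19.1, 36.6 and 22.0 with Sox9-GOF (-3.11, and -2.02 without control 2). Foxd3, a factor of neural crest and its glia, had 232, 1978 and 72.9 in the controls and 17.5, 35.7 and 10.5 with Sox9-GOF (-4.03 (SE 1.18)). In the laminin chain Lama5 the log2 fold change was -2.29 and -1.52 without control 2, in the laminin-binding integrin Itgb4 -2.55 and -1.48, in Sema3b -3.01 and -1.73, and in Egfl8 -3.05 and -1.85. The part of Schwann cells in the collagen difference was not tested. Control 1 also lay above the Sox9-GOF libraries in Dhh, Foxd3 and the 3 collagens. Among mesenchymal genes of glioma, the median was -0.29 with 15 of 24 negative, 0.14 without control 1 and -0.68 without control 2. Emp3, a membrane protein of mesenchymal gliomas, had 434, 405 and 226 in the controls and 111, 128 and 76.7 with Sox9-GOF (-1.72, and -1.07 corrected), and S100a4, a calcium-binding protein of motile cells, had 593, 1153 and 504 in the controls and 234, 366 and 255 with Sox9-GOF (-1.32 (SE 0.36)).

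Chromatin regulators, the subject of the title of the series, had members in both directions. Of 32 genes of histone deacetylase complexes 11 were positive and 21 negative, and 5 were higher without overlap (15.6%, against 15.3% of all genes) and 10 lower (31.2%, against 15.2%). The list median was -0.18, -0.10 corrected and -0.12 without Sox9-GOF 3. Hdac7, a class IIa deacetylase, had normalized counts of 558, 753 and 605 in the controls and 159, 184 and 202 with Sox9-GOF, a log2 fold change of -1.80 (SE 0.21) (-1.26 corrected). Gatad2b and Mta1 are both subunits of the NuRD complex. Gatad2b had 97.6, 87.7 and 79.8 in the controls and 281, 391 and 301 with Sox9-GOF (1.85 (SE 0.24)), and Mta1 had 1296, 1319 and 1007 in the controls and 401, 535 and 481 with Sox9-GOF (-1.35, and -0.77 corrected), so these subunits lay on opposite sides. Among 22 acetyltransferases and readers Kat2a had 1070, 1164 and 983 in the controls and 573, 522 and 481 with Sox9-GOF (-1.03, and -0.45 corrected), and Crebbp had 169.6, 225 and 171 in the controls and 318, 447 and 387 with Sox9-GOF (1.02 (SE 0.23)). Among 29 histone methylation genes the demethylase Kdm6b had 1178, 1373 and 517 in the controls and 259.9, 447 and 356 with Sox9-GOF (-1.44 (SE 0.42)), and Kdm5a had 421, 506 and 354 in the controls and 763, 1023 and 896 with Sox9-GOF, 1.07 as measured and 0.21 corrected. The large family of zinc finger genes named Zfp and a number was higher in 230 of 318 members, with a median of 0.44 that was 0.06 after the correction. Near-identical copies in this family make single members uncertain. Zfp771 lay against that direction, at 346, 393 and 394 in the controls and 87.4, 102 and 76.7 with Sox9-GOF (-2.08, and -0.91 corrected).

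Genes of energy metabolism were somewhat lower. Hypoxia and glycolysis genes had a median of -0.41 (-0.32 corrected), with 24 of 29 negative, 7 without overlap (24.1% against 15.2% of all genes), and medians of -0.20 without control 1, -0.85 without control 2 and -0.23 without Sox9-GOF 2. Slc2a1, the glucose transporter of hypoxic cells and brain endothelium, had 2495, 895 and 1485 in the controls and 659.6, 575 and 759 with Sox9-GOF (-1.17 (SE 0.38)), and P4ha2, a collagen prolyl hydroxylase, had 328, 112 and 96.7 in the controls and 33.4, 45.5 and 60.4 with Sox9-GOF (-1.74 (SE 0.54)). Nuclear genes of oxidative phosphorylation had -0.20 with 53 of 77 negative and 23 without overlap (29.9% against 15.2%), and the median turned to 0.07 after the correction and was -0.31 without Sox9-GOF 1. Cox8a, a subunit of cytochrome c oxidase, had 4099, 4913 and 5084 in the controls and 2526, 2138 and 2416 with Sox9-GOF (-0.99, and -0.22 corrected), while Sdhc, a subunit of succinate dehydrogenase, had 1897, 1791 and 1656 in the controls and 936, 1100 and 994 with Sox9-GOF (-0.82, and -0.86 corrected). Cholesterol synthesis and uptake genes had -0.31 (-0.21 corrected, -0.20 without Sox9-GOF 3; 16 of 23 negative), with Srebf2, the main activator of the pathway, at 2258, 2524 and 2042 in the controls and 1527, 1624 and 1329 with Sox9-GOF (-0.61, and -0.21 corrected). Cytoplasmic ribosomal protein genes had a median of -0.01, with 40 positive and 42 negative, which ran from -0.17 to 0.18 with 1 library left out and was 0.21 corrected.

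Proliferation, lymphocyte and antigen presentation lists held no member that separated the groups. Of 25 genes of DNA replication and 25 of mitosis, 0 were free of overlap in either direction, and the medians were 0.04 and 0.27. Both turned sign when 1 library was left out, for example to -0.31 and -0.06 without Sox9-GOF 1. Mki67, the proliferation marker, had 2322, 782 and 977 in the controls and 2754, 4529 and 949 with Sox9-GOF, so the groups overlapped. Lymphocyte markers had a median of -0.59, 0.04 without control 1, -2.93 without control 2 and 0.39 without control 3. Cd79a, of the B cell receptor, had 317, 8.99 and 319.9 in the controls and 6.36, 4.06 and 55.6 with Sox9-GOF, low in control 2 and in Sox9-GOF 1 and 2. Of the 19 lymphocyte genes and the 19 genes of MHC and antigen presentation 0 were free of overlap.

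Lists of vessels, border macrophages and choroid plexus depended on single libraries. Endothelial and blood-brain barrier genes were positive in 8 of 21 members, and their median was -0.23, -0.58, -0.10 and -0.0065 without controls 1, 2 and 3 and -0.51 corrected. For pericyte and smooth muscle genes (7 of 15 positive) it was -0.0042, 0.41 without control 3, 0.19 corrected and 0.33 with a minimum mean of 50. Genes of border-associated macrophages had 0.76 (8 of 10 positive), which turned to -0.29 without control 2 and was 1.28 without control 3, 0.31 without Sox9-GOF 2 and 0.43 corrected. Among choroid plexus genes Ttr, a thyroid hormone carrier made there, had 113346, 121 and 11.5 in the controls and 57.2, 39.0 and 10001 with Sox9-GOF, highest in control 1, and the list median of -0.79 was 1.5 without that library. It ran from -2.06 without control 2 to that value, with -1.63 without control 3 and 0.11, -0.20 and -1.69 without Sox9-GOF 1, 2 and 3.

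Genes altered in mouse and human gliomas were measured too. Atrx, a chromatin remodeller, had 915, 935 and 803 in the controls and 2658, 3590 and 2415 with Sox9-GOF (1.69, and 0.53 corrected), and Trp53 had 978, 418 and 588 in the controls and 322, 249 and 332 with Sox9-GOF (-1.06, and -0.67 corrected). Every Sox9-GOF library lay above every control in Atrx and below every control in Trp53. Pik3ca and Nf1 had 0.91 and 0.72 as measured, and -0.048 and -0.055 after the correction, so both turned sign.

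**Figure D4:**
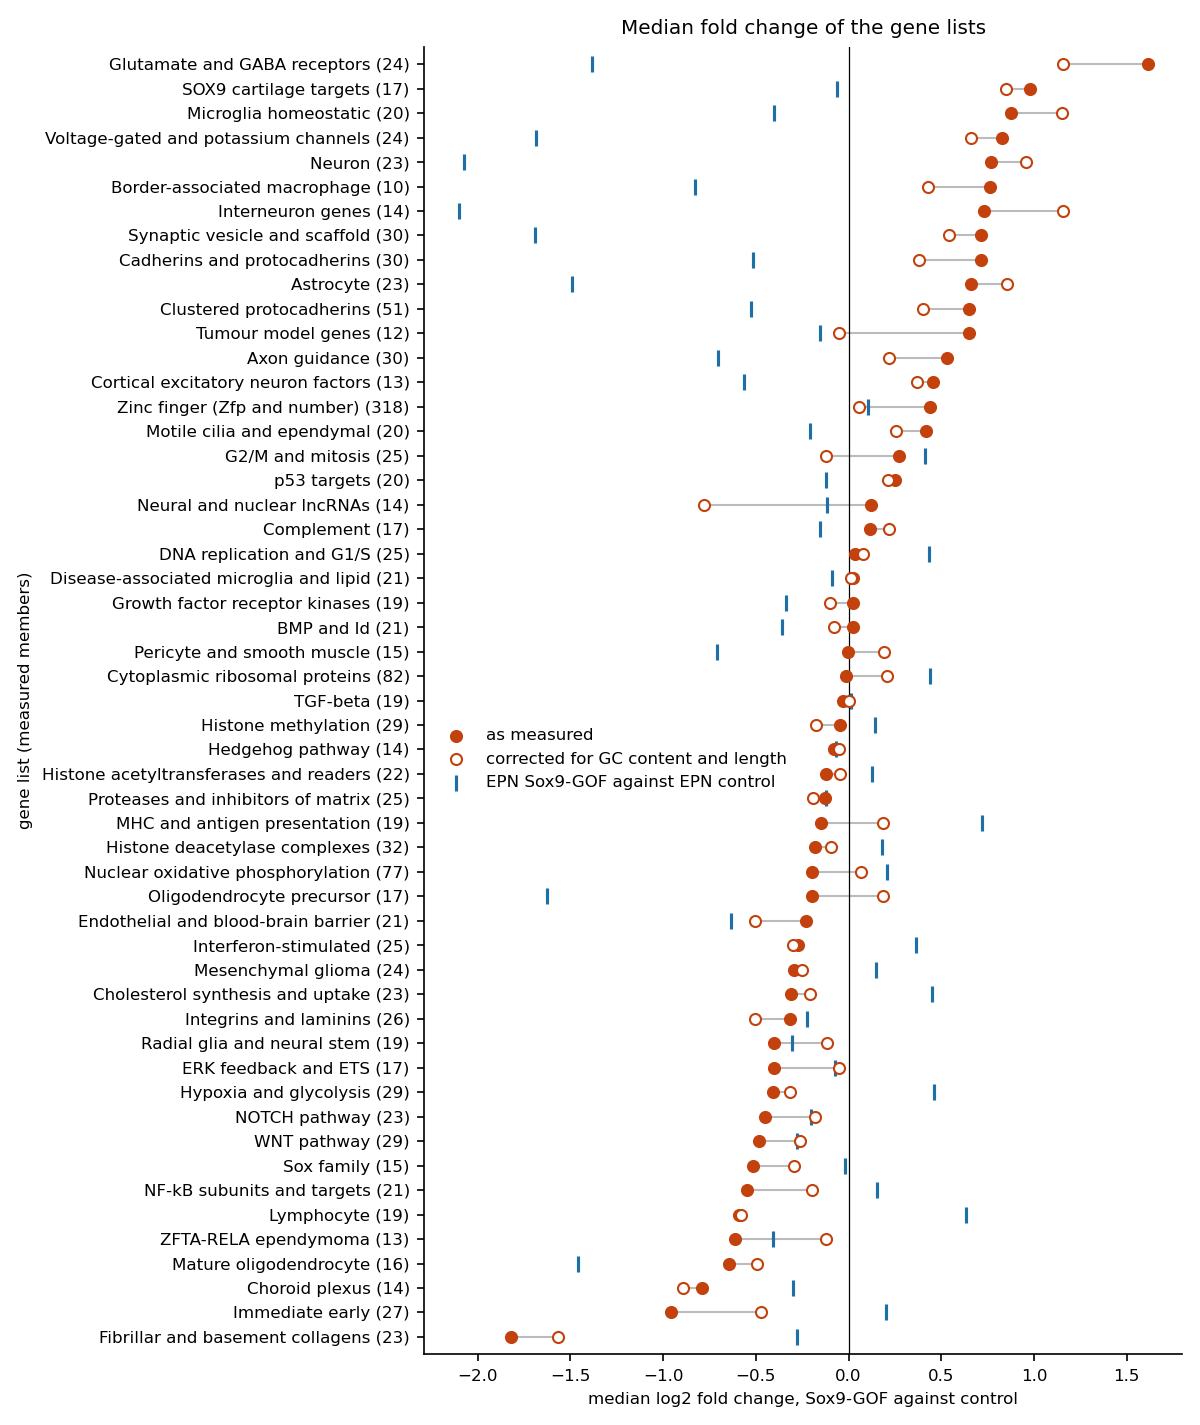
Median log2 fold change of Sox9-GOF against control (horizontal axis) for the lists with at least 10 measured genes (vertical axis, number measured in brackets) in HGG as measured (filled circles), in HGG after the correction for GC content and length (open circles) and in EPN (blue ticks). Receptor, cartilage and microglia genes lie to the right and collagens and immediate early genes to the left, and the median of zinc finger genes moves from 0.44 to 0.06.

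The effect of Sox9-GOF in HGG was set against that in EPN, a comparison with no shared library. The tables of the models were normalized separately, so only the effects within each are compared. The difference between the effects, EPN minus HGG, passed an adjusted p of 0.05 for 954 of 14121 genes (6.76%), 453 with the EPN effect above (3.21%) and 501 below (3.55%). In 903 of the 954 the HGG and EPN effects had opposite signs, 472 with HGG positive and 431 with HGG negative. Choosing genes for a large difference between these effects favours opposite signs, so this count is no separate result. Across all 14121 genes the effects had a Pearson r of -0.248 (Spearman rho -0.233), and 42.0% had the same sign. The count of called differences was 435 with the replicate number as a block, 49 without EPN control 2, 2081 without HGG control 3 and 5 after the correction for GC content and length. Those 5 were Cux1, H2afj, Scand1, Sv2c and Tbc1d17, with differences of 1.41, 2.15, 3.12, -4.45 and 1.52, named because so few passed. Of the lists, neuron markers had a median of -2.07 in EPN against 0.77 in HGG, the latter -0.26 without HGG control 1. Of these markers 2 of 23 passed the test of the difference. Glutamate and GABA receptors had -1.38 against 1.61, with 3 of 22 passing. All 5 members had the EPN effect below the HGG effect, as did 8 of 30 synaptic genes and 4 of 23 channel genes, against 3.55% of all genes.

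Within EPN alone limma called 0 of 14591 genes (0%) at an adjusted p of 0.05, so the EPN effects of single genes are values that passed no test. Their limma adjusted p was 0.133 for Sox9, 0.205 for Scand1 and 0.152 for Zfp771. Sox9 had a positive fold change in both models, 2.40 in HGG and 1.04 in EPN (1047 ± 86.5 (SD, n = 3) in EPN controls and 2173 ± 436 in EPN Sox9-GOF). The difference for Sox9 was -1.36 (SE 0.26, limma adjusted p = 0.0223), and -1.19 with an adjusted p of 0.0676 after the correction. With 1 of the 12 libraries left out the difference ran from -1.52 to -1.21, with a limma adjusted p of up to 0.0627. Genes with a negative HGG and a positive EPN effect included Scand1, at 112 ± 53.2 (SD, n = 3) in EPN controls and 249.7 ± 69.9 in EPN Sox9-GOF, a difference of 4.50 (SE 0.49, limma adjusted p = 0.00758). Zfp771, a zinc finger gene, had 82.3 ± 20.4 (SD, n = 3) in EPN controls and 191 ± 32.7 in EPN Sox9-GOF and a difference of 3.31 (SE 0.34, limma adjusted p = 0.00758). Jund, which was lower in every HGG Sox9-GOF library, had 662 ± 148 (SD, n = 3) in EPN controls and 1078 ± 61.2 in EPN Sox9-GOF, and its EPN effect was 0.72. In the other direction stood genes of neurons, precursors and microglia. Sv2c had 51.7 ± 4.81 (SD, n = 3) in EPN controls and 8.85 ± 3.31 in EPN Sox9-GOF, a difference of -5.18 (SE 0.53, limma adjusted p = 0.00758). Dgkb, a diacylglycerol kinase of neurons, had an HGG effect of 2.66 (1.73 corrected) and an EPN effect of -3.14. Scg2, a granin of secretory vesicles, had 2.45 and -2.82. For Gpr34 the effects were 3.72 and -1.25, and for Penk 3.44 and -1.52. Tnr and Ptprz1 of glial precursors had 2.08 and 1.09 in HGG and -2.31 and -1.81 in EPN. The channels Kcnj16 and Scn3a had 2.02 and 1.74 in HGG and -1.53 and -2.04 in EPN.

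**Figure D5:**
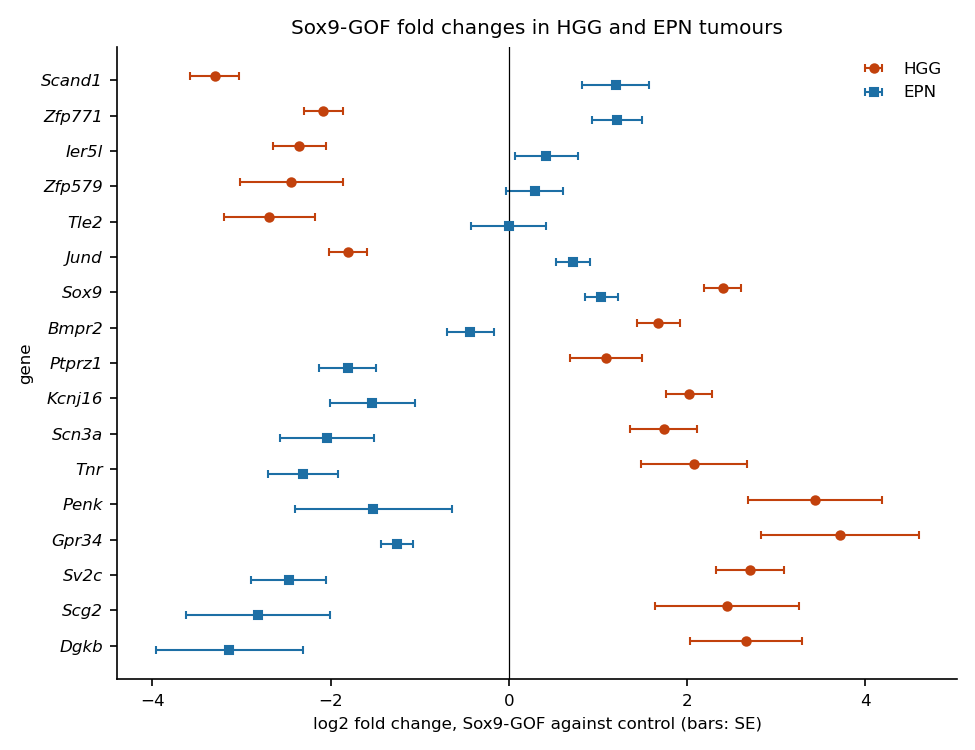
Log2 fold change of Sox9-GOF against control with its SE (horizontal axis) in HGG (circles) and EPN (squares) for 17 genes (vertical axis). They were chosen from the 954 genes whose difference between the models passed limma at an adjusted p of 0.05. Sox9 is positive in both models, and the EPN value of Tle2 lies at 0.00.

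In the HGG libraries labelled Sox9-LOF, which were compared with the same 3 controls, Sox9 had a log2 fold change of 1.03, the direction opposite to that label, and the values share their control error with those above. Side by side, Sox9-GOF and the libraries labelled Sox9-LOF had -3.30 and -3.85 for Scand1, 2.20 and 1.59 for Uhmk1, -1.81 and -1.73 for Jund, and 3.44 and 4.04 for Penk. The list medians were -0.96 and 0.04 for immediate early genes, 0.98 and -0.46 for cartilage genes, 1.61 and 1.74 for glutamate and GABA receptors and -1.82 and -1.34 for collagens.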

How the data were processed

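The authors deposited 1 table per comparison, with 24421 genes and, per library, read counts divided by a size factor, a normalized count (a signal on a linear scale). Per the submitters' processing notes the build was mm10 and the tools were FastQC 0.11.7, MultiQC 1.11, STAR 2.5.0a and DESeq2 1.30.1. The tool and gene models behind the counts were not given in the sources used here. Dividing each deposited value by its library's smallest step gave whole reads (100% within 0.001 read), which were used as recovered reads.

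Genes with a mean of at least 10 were tested on log2(value + 1) with limma 3.58.1 in R 4.3.3, with a trended variance, Benjamini-Hochberg adjustment and a threshold of 0.05. Checks with edgeR 4.0.16 and DESeq2 1.42.0 used the recovered reads, and scripts were tested on simulated data. The GC and length correction fitted each library's deviation with splines of 5 degrees of freedom. GC content came from GENCODE transcripts, matched for 98.3% of genes. The labels do not say that replicate numbers pair the libraries. Deviations of same-numbered libraries of both groups had correlations of 0.178, 0.443 and 0.224. A library numbered 3 reached 0.295 with another number, above 0.178 and 0.224, so a pairing is uncertain. The main test used none, and a fit with the number as a block was an alternative only.

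The gene lists were chosen with earlier results of these data known. Genes were named by size of change under the filters given with those genes, by p-value, by rank of the limma p-value within a list (up to 4) and by the difference between the models. Acan, Aif1, Col2a1, Col3a1, Col4a1, Dusp1, Egr3, Fos, Gfap, H2afj, Jun, Junb, Klf4, Olig2, Sox10, Sox2, Sox6, Tbc1d17, Tmem119 and Ttr fall outside that rule and were chosen after their values were seen, as was the Schwann cell list. Some genes are not reported here.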

Additional observations from a re-analysis of the deposited data

Results flagged for a closer look

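The effect of Sox9-GOF differed between the EPN and HGG models for 954 of 14121 genes (6.76%) by limma's test of the difference at an adjusted p of 0.05. Listed here are 17 of them that were chosen for naming, so 17 is no count of the genes that differed. Each value is the log2 fold change in EPN minus that in HGG. The difference was -5.80 for Dgkb, -5.27 for Scg2, -5.18 for Sv2c, -4.96 for Gpr34, -4.96 for Penk, -4.39 for Tnr, -3.78 for Scn3a, -3.55 for Kcnj16, -2.90 for Ptprz1, -2.11 for Bmpr2 and -1.36 for Sox9. It was 2.53 for Jund, 2.69 for Tle2, 2.73 for Zfp579, 2.77 for Ier5l, 3.31 for Zfp771 and 4.50 for Scand1. After the correction for GC content and length, only Scand1 (3.12) and Sv2c (-4.45) of the 17 had an adjusted p under 0.05 in limma. With the replicate number as a block, Zfp579, Tle2, Dgkb, Scg2 and Penk had limma adjusted p-values of 0.0571, 0.0526, 0.0509, 0.0725 and 0.0751, and the other 12 stayed under 0.05. With 1 of the 12 libraries left out in turn, the difference of 11 of the 17, Sox9 (0.0627) among them, had a largest limma adjusted p over 0.05.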

How the results depend on the processing

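The count of genes called in HGG, 0 by limma, was 161 with a minimum mean of 50, 1259 with the spread estimated from the 9 HGG libraries, 2253 with that from all 15 libraries, 2260 with DESeq2 and 1226 at a threshold of 0.10. It was 0 with each library left out in turn, with the replicate block, with edgeR and after the GC and length correction. For Sox9 the log2 fold change was 2.40 with a minimum mean of 50 (limma adjusted p = 0.049), 2.39 with DESeq2 (1.05e-19), 2.39 with the 9 HGG libraries (0.0129) and 2.38 with all 15 (0.000703), all past the threshold. It was 2.25 to 2.5 with each library left out, with limma adjusted p-values of 0.0639 to 0.239 that missed the threshold. The adjusted p also missed it with edgeR (0.0666) and, in limma, with the replicate block (0.104), after the GC and length correction (0.149) and with both (0.433).

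The count of differences between the models, 954, was 2430 with DESeq2, 435 with the replicate block and 5 after the GC and length correction. It ranged from 49 to 2081 with 1 library left out. Without HGG controls 1, 2 and 3 it was 608, 612 and 2081, and without HGG Sox9-GOF 1, 2 and 3 it was 337, 265 and 173. Without EPN controls 1, 2 and 3 it was 402, 49 and 90, and without EPN Sox9-GOF 2 and 3 it was 544 and 415. The cause was not tested.

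Some log2 fold changes turned sign. After the GC and length correction, with or without the replicate block, Nf1 had -0.055, Nfia -0.77 and Pik3ca -0.048. With 1 library left out Aif1 ran from -0.33 (without control 2) to 0.88, Col2a1 from -0.074 (without Sox9-GOF 2) to 1.67, Nfia from -0.042 (without Sox9-GOF 2) to 0.25 and Tmem119 from -0.11 (without control 1) to 0.49. With the block, as without it, there was no called gene in HGG to lose. Control 2 was the shallowest library, and its depth as a limit was not tested.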
